A study of Mus musculus with 8 samples.

Results

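The 38 genes described here encode enzymes and subunits that build the sugar precursor of N-linked glycans, transfer it to proteins and trim it afterwards. They were taken by gene symbol from the table of read counts, with the row of highest total over the 8 libraries for each symbol. All 38 were found among 23366 symbols, and all 38 passed the filter on low counts, which left 14418 genes to test. By role, 14 make sugar donors and dolichol, 11 assemble the lipid-linked sugar, 6 are subunits of the oligosaccharyltransferase, 3 handle the glucoses of the transferred glycan and 4 trim its mannoses or start its branches in the Golgi.

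N-glycosylation begins on the membrane of the endoplasmic reticulum (ER), where sugars are added in a fixed order to the lipid carrier dolichol. Oligosaccharyltransferase moves the finished sugar tree from dolichol to asparagines of proteins that enter the ER. Removal and return of its glucoses then governs how long a glycoprotein stays with the ER lectin chaperones calnexin and calreticulin, and trimming of mannoses marks those to be degraded or leads on to Golgi processing. The donors of this pathway, GDP-mannose, UDP-glucose and UDP-N-acetylglucosamine, derive from hexose phosphates, so glucose supply and N-glycosylation meet in the same metabolites. The roles given below are those known for the enzymes in yeast and mammals.

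The libraries came from mouse embryonic fibroblasts on a C57BL/6 background at passages 3 to 5, as 2 libraries in each of 4 groups. These were cells labelled kdm3a KO, for the gene of a demethylase of histone H3K9, kept 12 h without glucose or fed (0 h), and wild-type (WT) cells after 12 h without glucose or fed. The medium was DMEM with 10% serum for the fed groups, and for the starved groups DMEM that lacked glucose and held 10% dialyzed serum. Glucose loss therefore cannot be told apart from the change of serum and medium or from the 12 h themselves, and starvation below stands for all of them. The labels do not give the origin of the knockout line, and they do not say whether replicates were grown apart or came from different embryos. The p-values thus reflect the spread between libraries, which may be technical.

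Libraries held 38407520 to 53602289 counts and replicates correlated at r = 0.9911 to 0.9948 across genes. Kdm3a had 65.4 and 66.7 CPM (counts relative to the TMM-adjusted library total) in starved KO-labelled cells, 55.2 and 55.4 CPM in fed KO-labelled cells, 176 and 185 CPM in starved WT cells and 56.1 and 56.4 CPM in fed WT cells. Counts per transcript do not reveal a missing exon, so the like levels of fed cells do not check the knockout, and the libraries are called KO-labelled. Xist, a transcript of the inactive X chromosome, had 869 to 1370 CPM in KO-labelled libraries and 0.939 to 1.54 CPM in WT libraries, and the Y-linked gene Ddx3y had 0 to 1 counts in KO-labelled libraries and 1171 to 1251 counts in WT libraries. Genotype and sex of the embryos cannot be told apart. All 9 fibroblast markers were detected in every group, with a summed level of 13088 to 13213 CPM in starved KO-labelled, 10744 to 10791 CPM in fed KO-labelled, 19958 to 20961 CPM in starved WT and 19557 to 20160 CPM in fed WT cells. The single markers moved far more than their sum. Col1a2 had 36.2 and 36.4 CPM in starved KO-labelled, 267 and 261 CPM in fed KO-labelled, 353 and 381 CPM in starved WT and 6200 and 6020 CPM in fed WT libraries, and Col1a1 and Col3a1 were also lower in starved cells of each genotype. Vim had 4302 and 4291 CPM in starved KO-labelled, 3635 and 3607 CPM in fed KO-labelled, 11396 and 11322 CPM in starved WT and 4400 and 4395 CPM in fed WT libraries, and Fn1 was higher in starved cells of each genotype. Thy1 lay at 4.72 to 6.62 CPM in KO-labelled libraries and at 99.3 to 166 CPM in WT libraries. Dcn went the other way, at 38.3 to 52.2 CPM in KO-labelled libraries and 1.66 to 2.57 CPM in WT libraries. Pdgfra was also higher in KO-labelled than in WT cells, fed and starved, while Pdgfrb was lower in both. Of 7 macrophage and blood markers, 6 were in the table and summed to 47.4 to 47.6 CPM in starved KO-labelled cells, of which Cd68 gave 40.7 to 40.9 CPM, and to at most 5.88 CPM in the other groups, with Ptprc and Emr1 at 0 throughout. Endothelial markers summed to 52.9 to 54.9 CPM in starved WT cells, nearly all Kdr, and to at most 5.50 CPM elsewhere, and epithelial markers to at most 2.83 CPM. The part of these differences in the results below was not tested, and in bulk RNA fewer cells of a type and less RNA per cell cannot be told apart.

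Promoters were searched for the ER stress response element, a sequence through which the factors ATF6 and NF-Y are known to switch on ER chaperone genes. RefSeq promoters on GRCm38.p6, from 250 bases before to 50 bases after the start, were at hand for 34 of the 38 genes. A gene was counted when any of its promoters matched. The element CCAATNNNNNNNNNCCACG (on the other strand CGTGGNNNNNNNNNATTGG) was present in 1 of the 34, Alg12, and in 0.137% of the 27025 genes with a promoter. With 1 base of CCACG left free it was also found in Rpn2, so in 2 of the 34 and in 1.14% of all genes with a promoter. The sites of Alg12 and Rpn2 are shown with that of Calr, the calreticulin gene, which was among the other pathway genes with the largest changes. Capitals mark the bases that match the fixed letters of the element, and 20 bases are given on each side.
Alg12: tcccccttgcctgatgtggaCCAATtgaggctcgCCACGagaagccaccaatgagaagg
Rpn2: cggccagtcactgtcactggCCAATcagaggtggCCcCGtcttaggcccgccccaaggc
Calr: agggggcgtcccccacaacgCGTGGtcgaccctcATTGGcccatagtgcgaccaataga
The Alg12 stretch is chr15:88819500-88819558 on the minus strand, with the element 220 to 202 bases before the start. The Rpn2 stretch is chr2:157278940-157278998 on the plus strand, with the element 138 to 120 bases before the start. The Calr stretch is chr8:84847055-84847113 on the minus strand and holds the element in the opposite orientation, 162 to 144 bases before the start. The shorter letters CCAAT and CCACG, each on either strand and each also a part of the full element, were also searched. They occurred together in a promoter of 9 of the 34 genes and of 13.3% of all genes with a promoter. The 9 were Dhdds, Dpm1, Alg12, Ddost, Dad1, Rpn1, Stt3a, Stt3b and Ganab, which include 5 of the 6 oligosaccharyltransferase genes. A form of the ATF4 element, TGATGNAAT on either strand, was found in 0 of the 34 and in 1.08% of all genes with a promoter. These matches are descriptions of the letters in these windows and were not tested for binding.

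Starved KO-labelled cells gave the highest share of their counts to the 38 genes. The genes took 0.602 and 0.603% of all counts in starved KO-labelled libraries, 0.413 and 0.416% in fed KO-labelled libraries, 0.319 and 0.324% in starved WT libraries and 0.362 and 0.365% in fed WT libraries. The share is the level relative to plain library totals. Relative to the TMM-adjusted totals, the 38 summed to 6115 and 6112 CPM in starved KO-labelled, 3510 and 3529 CPM in fed KO-labelled, 4021 and 4097 CPM in starved WT and 3337 and 3351 CPM in fed WT libraries. With either scaling the sum was larger in starved than in fed KO-labelled cells, whereas in WT cells starved libraries lay below fed libraries by library totals and above them by TMM. Per kb of transcript, fed WT cells held 38.6 to 146 CPM of the 6 oligosaccharyltransferase subunits, led by Rpn2, and 134 and 109.5 CPM of Ganab and Prkcsh. The donor and dolichol genes lay at 6.70 to 41.2 CPM per kb, the assembly genes at 4.94 to 21.4 CPM per kb, and Man1a was the lowest of the 38 at 0.895 CPM per kb.

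**Figure D1:**
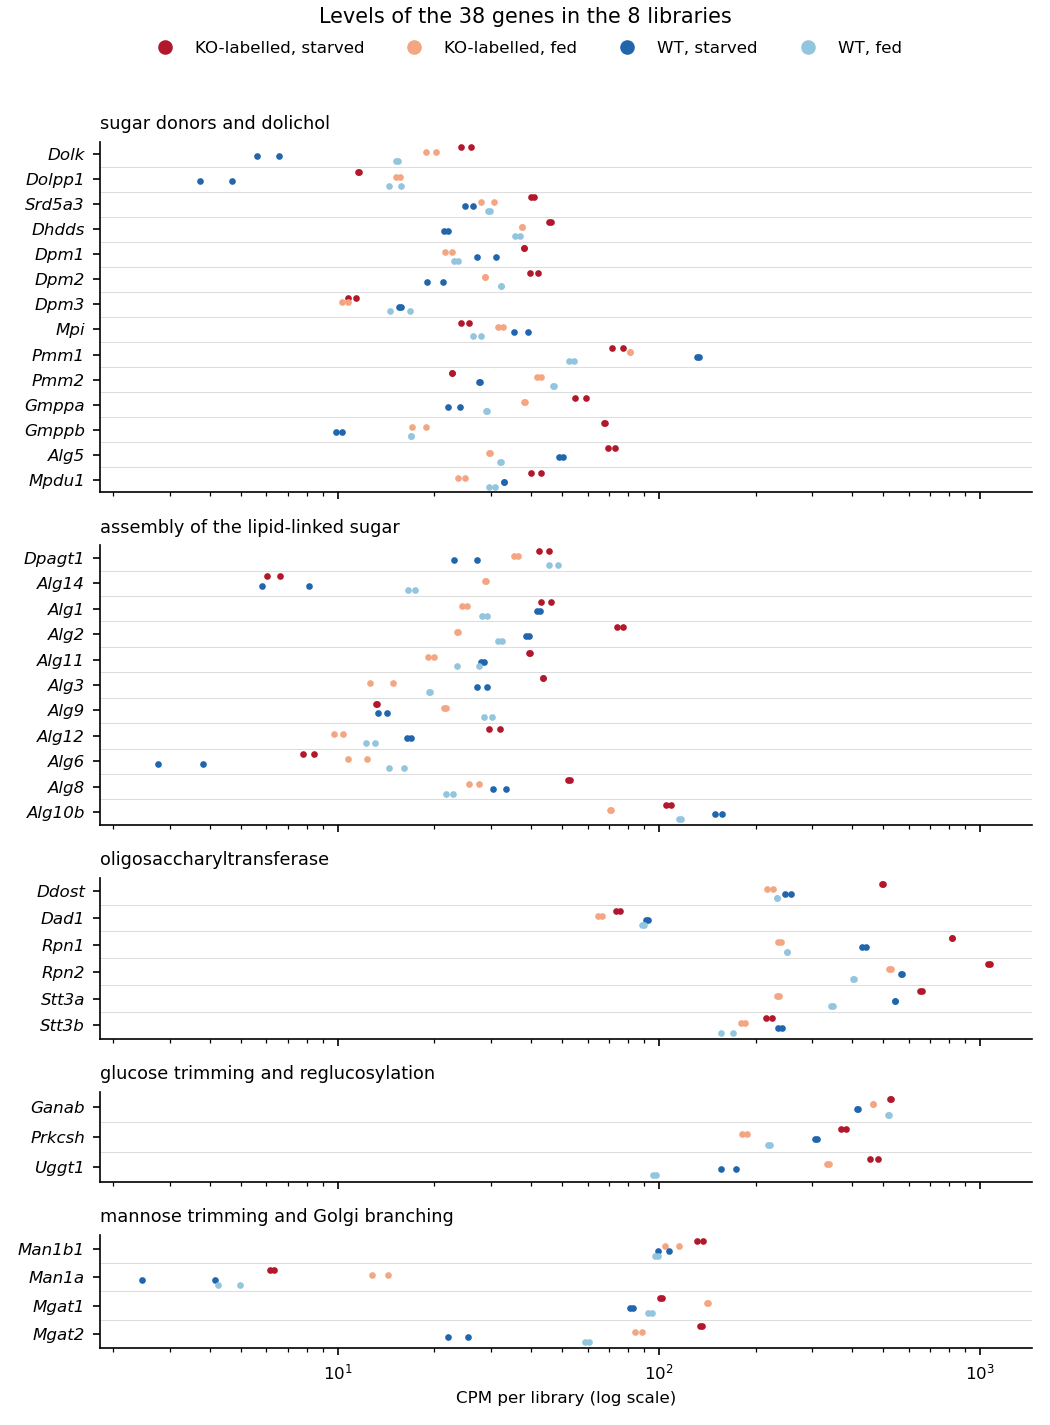
Level of each of the 38 genes in CPM per library on a log axis, with genes grouped by role and 4 colours for the 4 groups of 2 libraries. Points of the same group lie close together for most genes, and the starved KO-labelled libraries stand clear at the top for Gmppb, Alg2, Ddost, Rpn1 and Rpn2, with Rpn1 at 815 and 818 CPM.

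Starvation moved the 38 genes mostly upward in KO-labelled cells, and in both directions in WT cells. By edgeR's quasi-likelihood test (adjusted p under 0.05 over all genes tested), 28 members rose and 9 fell in starved against fed KO-labelled cells, where 79.7% of all genes were called, 39.4% higher and 40.3% lower. In starved against fed WT cells 17 members rose and 16 fell, where 81.6% of all genes were called, 36.7% higher and 44.8% lower. The median log2 fold change of the 38 was 0.49 in KO-labelled cells, against a median of -0.02 over all genes tested, and 0.10 in WT cells, against -0.17. In either direction 97.4% of the members were called in KO-labelled and 86.8% in WT cells, the second close to its background.

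Counts of calls depended on the scaling. Plain library totals in place of TMM moved the median of all genes by -0.26 in KO-labelled starvation, -0.46 in WT starvation, 0.32 between starved genotypes, 0.12 between fed genotypes and 0.20 in the difference of responses. With library totals 21 members rose and 10 fell in KO-labelled starvation, where 4261 of the 14418 genes tested rose and 7242 fell. In WT starvation 6 members rose and 23 fell, where 3397 of all genes tested rose and 8629 fell. The share of members that fell in WT cells was thus close to that of all genes. The upward majority in KO-labelled cells was present with both scalings, while the even split in WT was not. Fold changes below are relative to the TMM baseline, and for each role group the counts of calls are given with both.

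Of the 38, 15 (39.5%) rose on starvation in both genotypes and 7 (18.4%) fell in both, against 28.2% and 30.2% of all genes tested. A further 9 rose in KO-labelled and fell in WT cells, namely Dolk, Srd5a3, Dhdds, Dpm2, Gmppa, Gmppb, Dpagt1, Ganab and Mgat2. That is 23.7% of the members, against 5.38% of all genes tested, and 6 of the 9 are donor or dolichol genes. Mpi and Pmm1 had the opposite pattern, falling in KO-labelled and rising in WT cells. That is 5.26% of the members, near the 4.21% of all genes tested. Dpm3 was called in neither genotype. With library totals 4 (10.5%) rose in both genotypes (Alg5, Rpn1, Stt3a and Uggt1), against 17.6% of all genes tested. Another 8 (21.1%) fell in both, against 42.2% of all genes tested. Again 9 rose in KO-labelled and fell in WT cells, against 6.57% of all genes tested, but of the genes named above only Srd5a3, Dpm2, Gmppa, Gmppb and Mgat2 were among them. Dolk, Dhdds and Dpagt1 then fell in WT cells and were not called in KO-labelled cells, Ganab fell in both, and Mpdu1, Alg2, Alg11 and Ddost joined the pattern.

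**Figure D2:**
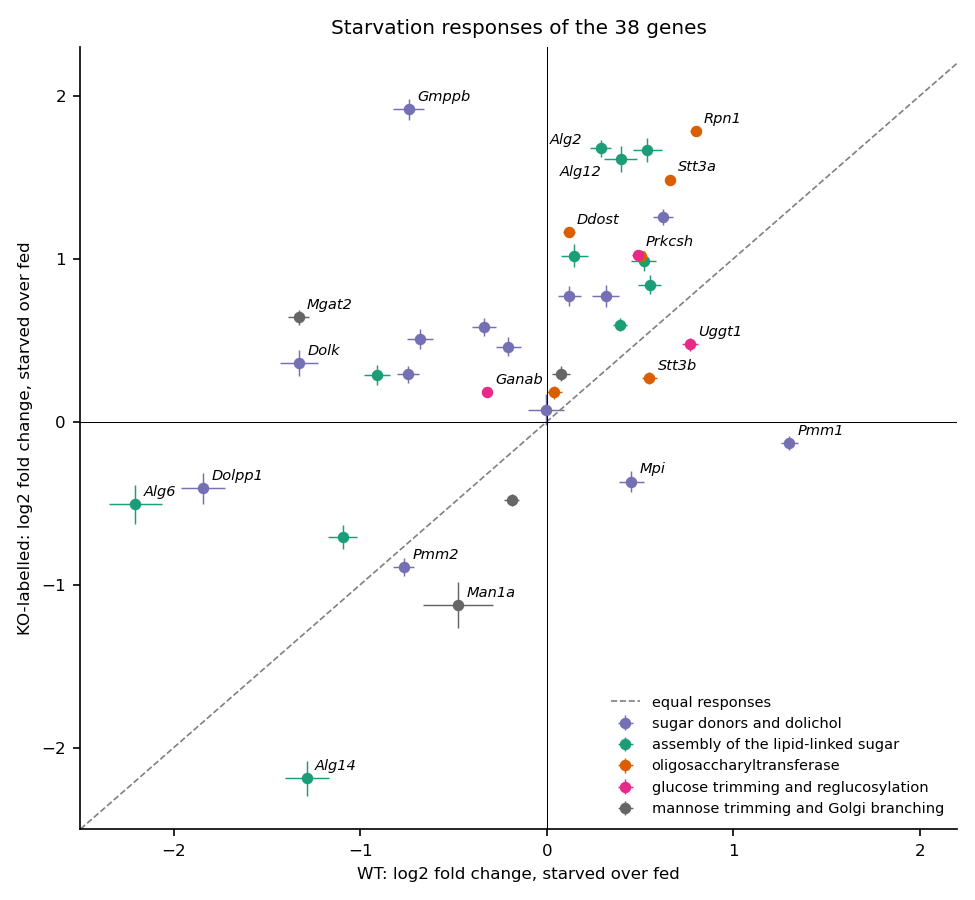
Starvation response of each gene in KO-labelled cells (y axis, log2 fold change, starved over fed) against that in WT cells (x axis), with bars of ± SE and the dashed line of equal responses. Gmppb lies at 1.92 in KO-labelled and -0.74 in WT cells, Pmm1 at -0.13 and 1.30, and the oligosaccharyltransferase genes other than Stt3b lie above the line.

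The 14 genes of donor and dolichol supply rose more often than they fell in KO-labelled starvation, with 9 higher and 4 lower (median 0.41), and fell more often in WT, with 4 higher and 8 lower (median -0.27). With library totals these counts were 7 and 4 in KO-labelled cells and 2 and 10 in WT cells. Their summed level was 578 and 566 CPM in starved KO-labelled, 429 and 429 CPM in fed KO-labelled, 434 and 435 CPM in starved WT and 406 and 402 CPM in fed WT libraries. By TMM the sum was thus higher in starved than in fed WT cells, although 8 of the 14 fell, but by library totals it was 345 and 344 CPM in starved WT and 440.4 and 437 CPM in fed WT libraries. In KO-labelled cells library totals gave 569.8 and 559 CPM in starved and 505 and 506 CPM in fed libraries, the same order as TMM. Pmm1 made up 133 and 131 CPM of the TMM sum in starved WT libraries, against 54.5 and 52.6 CPM in fed WT libraries.

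Gmppb, the catalytic subunit of the enzyme that makes GDP-mannose, had 67.6 and 67.8 CPM in starved KO-labelled, 18.8 and 17.0 CPM in fed KO-labelled, 10.3 and 9.90 CPM in starved WT and 16.9 and 16.9 CPM in fed WT libraries. The starved KO-labelled libraries stood above all others, and the starved WT libraries below all others. It rose 3.78-fold in KO-labelled starvation (log2 1.92 ± 0.06 SE) and fell by 0.74 ± 0.08 on the log2 scale in WT starvation. Gmppa, its regulatory subunit, rose by 0.58 ± 0.06 in KO-labelled and fell by 0.34 ± 0.07 in WT cells on the log2 scale, and without starved WT replicate 1 it fell by 0.20 in WT. The ratio of Gmppb to Gmppa counts, which no scaling touches, was 1.14 and 1.24 in starved KO-labelled, 0.495 and 0.443 in fed KO-labelled, 0.471 and 0.413 in starved WT and 0.582 and 0.586 in fed WT libraries. Of the exonic bases of Gmppb, 27.8% overlap Rnf123 on the opposite strand, and whether the counts kept strand is not given in the sources used here. Rnf123 had 33.2 and 37.0 CPM in starved KO-labelled and 27.9 and 28.9 CPM in fed KO-labelled libraries. In WT libraries it had 28.1 and 30.7 CPM when starved and 29.2 and 28.4 CPM when fed. Rnf123 rose by 0.31 ± 0.06 in KO-labelled starvation and had 0.03 ± 0.07 in WT starvation, which did not pass. Its part in the Gmppb counts was not tested.

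The phosphomannomutases, which supply mannose-1-phosphate, went apart. Pmm1 had 77.4 and 71.3 CPM in starved KO-labelled, 81.3 and 81.6 CPM in fed KO-labelled, 133 and 131 CPM in starved WT and 54.5 and 52.6 CPM in fed WT libraries. It rose 2.46-fold in WT starvation (log2 1.30 ± 0.05 SE) and fell by 0.13 ± 0.04 in KO-labelled starvation, a call lost without fed KO-labelled replicate 2 (-0.12) or starved KO-labelled replicate 2 (-0.07). Pmm2, the form that is mutated in the most common human glycosylation disorder, fell in both genotypes, by 0.89 ± 0.05 in KO-labelled and 0.77 ± 0.06 in WT cells. The Pmm1 to Pmm2 count ratio was 3.40 and 3.13 in starved KO-labelled, 1.95 and 1.90 in fed KO-labelled, 4.81 and 4.77 in starved WT and 1.17 and 1.12 in fed WT libraries. It was therefore higher in starved than in fed cells of each genotype. Mpi, which turns fructose-6-phosphate into mannose-6-phosphate, fell by 0.37 ± 0.07 in KO-labelled cells and rose by 0.45 ± 0.07 in WT cells, where library totals gave -0.0024.

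Dolichol genes showed the largest falls of this group in WT cells. Dolpp1, the phosphatase that recycles dolichyl pyrophosphate, had 11.7 and 11.5 CPM in starved KO-labelled, 15.2 and 15.7 CPM in fed KO-labelled, 3.72 and 4.69 CPM in starved WT and 15.7 and 14.5 CPM in fed WT libraries. Dolk, the kinase of the last step of dolichyl phosphate synthesis, had 24.1 and 26.0 CPM in starved KO-labelled, 20.3 and 18.8 CPM in fed KO-labelled, 5.62 and 6.57 CPM in starved WT and 15.2 and 15.4 CPM in fed WT libraries. In starved WT cells each lay below every other library. Dolpp1 fell by 0.41 ± 0.10 in KO-labelled and 1.84 ± 0.12 in WT starvation on the log2 scale, and Dolk rose by 0.36 ± 0.08 in KO-labelled cells and fell by 1.33 ± 0.10 in WT cells. With library totals the rise of Dolk was 0.10 and no longer passed the test. Dhdds, a subunit of the prenyltransferase that builds the dolichol chain, rose by 0.29 ± 0.05 in KO-labelled cells, a call lost with library totals (0.04), and fell by 0.74 ± 0.06 in WT cells. Srd5a3, of the reduction of polyprenol to dolichol, rose by 0.46 ± 0.06 in KO-labelled cells and fell by 0.21 ± 0.07 in WT cells, a fall that did not pass without starved WT replicate 1 (-0.09) or 2 (-0.17).

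Genes that load sugars onto dolichyl phosphate mostly rose in KO-labelled cells. Alg5, which makes dolichyl-phosphate-glucose, had 72.9 and 69.2 CPM in starved KO-labelled, 29.6 and 29.7 CPM in fed KO-labelled, 48.8 and 50.2 CPM in starved WT and 32.3 and 31.9 CPM in fed WT libraries. Both starved groups lay above both fed groups, by a log2 fold change of 1.26 ± 0.05 in KO-labelled and 0.62 ± 0.05 in WT cells. Dpm1, the catalytic subunit of dolichyl-phosphate-mannose synthase, rose by 0.77 ± 0.07 in KO-labelled cells and 0.32 ± 0.07 in WT cells, where the value was 0.49 without starved WT replicate 2 and -0.14 with library totals. Of the exonic bases of Dpm1, 35.9% overlap Gm20716 on the same strand, and how shared reads were counted is not given in the sources used here. The second subunit gene Dpm2 rose by 0.51 ± 0.06 in KO-labelled and fell by 0.68 ± 0.07 in WT cells. The third, Dpm3, passed in neither genotype at 0.07 ± 0.10 in KO-labelled and -0.01 ± 0.10 in WT cells. Mpdu1, needed for the use of dolichol-bound sugars, rose by 0.77 ± 0.06 in KO-labelled cells and had 0.12 ± 0.06 in WT cells, which did not pass and was -0.33 with library totals.

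Among the 11 assembly genes, 8 rose and 3 fell in KO-labelled starvation (median 0.84), and 6 rose and 4 fell in WT starvation (median 0.29). With library totals 7 rose and 3 fell in KO-labelled cells, and 0 rose and 6 fell in WT cells. Their summed level was 466 and 464 CPM in starved KO-labelled, 286 and 288 CPM in fed KO-labelled, 385 and 391 CPM in starved WT and 363 and 368 CPM in fed WT libraries. By library totals it was 459 and 459 CPM in starved KO-labelled, 337 and 339 CPM in fed KO-labelled, 306 and 309 CPM in starved WT and 394 and 401 CPM in fed WT libraries. The sum was highest in starved KO-labelled cells with both scalings, while the lowest group was fed KO-labelled by TMM and starved WT by library totals.

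The first steps on the cytosolic face moved in different directions. Dpagt1, which adds the first sugar to dolichyl phosphate and is the target of tunicamycin, rose by 0.29 ± 0.06 in KO-labelled starvation, a call lost with library totals (0.03), and fell by 0.91 ± 0.07 in WT starvation. Alg14, which anchors the enzyme of the next step, had 6.01 and 6.63 CPM in starved KO-labelled, 28.8 and 29.0 CPM in fed KO-labelled, 8.14 and 5.82 CPM in starved WT and 16.6 and 17.4 CPM in fed WT libraries. Starved libraries of both genotypes lay at like levels and fed KO-labelled libraries stood highest. Alg14 fell 4.56-fold in KO-labelled starvation (log2 -2.19 ± 0.11 SE) and 2.44-fold in WT starvation (log2 -1.29 ± 0.12 SE).

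Of the 6 mannosyltransferase genes, 5 rose in KO-labelled starvation, with either scaling. Alg2, which adds mannoses on the cytosolic face, had 74.2 and 77.1 CPM in starved KO-labelled, 23.7 and 23.5 CPM in fed KO-labelled, 38.6 and 39.4 CPM in starved WT and 31.4 and 32.4 CPM in fed WT libraries. The starved KO-labelled libraries stood apart at the top and the fed KO-labelled libraries at the bottom. On the log2 scale it rose by 1.68 ± 0.05 in KO-labelled cells and by 0.29 ± 0.05 in WT cells, where library totals gave -0.17. On the lumenal face, Alg3 rose by 1.67 ± 0.07 in KO-labelled and 0.54 ± 0.08 in WT cells, and Alg12, whose promoter holds the full stress element shown above, rose by 1.61 ± 0.08 in KO-labelled and 0.40 ± 0.09 in WT cells. In WT cells library totals ended the calls of both, at 0.08 for Alg3 and -0.06 for Alg12. Alg1 rose by 0.84 ± 0.06 in KO-labelled and 0.55 ± 0.06 in WT cells, where library totals gave 0.09. Of the exonic bases of Alg1, 26.8% overlap Eef2kmt, counted under the symbol Fam86, on the opposite strand. Fam86 also rose, by 0.66 ± 0.09 in KO-labelled and 0.22 ± 0.10 in WT cells, and its part in the Alg1 counts was not tested. Alg11 rose by 1.02 ± 0.07 in KO-labelled cells. In WT cells Alg11 did not pass at 0.15 ± 0.07, passed without fed WT replicate 1 (0.27) or starved WT replicate 1 (0.24) or 2 (0.21), and was -0.31 with library totals. Alg9, which adds lumenal mannoses on both sides of the step of Alg12, went the other way and fell by 0.71 ± 0.08 in KO-labelled and 1.09 ± 0.08 in WT cells.

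The glucosyltransferases that finish the tree did not move together. Alg6, which adds the first glucose, had 7.80 and 8.47 CPM in starved KO-labelled, 12.3 and 10.8 CPM in fed KO-labelled, 2.76 and 3.82 CPM in starved WT and 14.4 and 16.0 CPM in fed WT libraries. In each genotype starved libraries lay below fed libraries, and the starved WT libraries were lowest. Alg6 fell by 0.51 ± 0.12 in KO-labelled cells and 4.62-fold in WT cells (log2 -2.21 ± 0.14 SE). Alg8, of the next glucose, rose by 0.99 ± 0.06 in KO-labelled and 0.52 ± 0.07 in WT cells, and Alg10b, of the last glucose, rose by 0.60 ± 0.04 in KO-labelled and 0.39 ± 0.04 in WT cells. With library totals the WT calls of both were lost, at 0.06 for Alg8 and -0.06 for Alg10b.

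All 6 oligosaccharyltransferase subunits rose in KO-labelled starvation (median log2 fold change 1.09), and in WT starvation 5 rose and 0 fell (median 0.53). With library totals 4 rose and 0 fell in KO-labelled cells, while 3 rose and 2 fell in WT cells. Their summed level was 3326 and 3336 CPM in starved KO-labelled, 1465 and 1471 CPM in fed KO-labelled, 2118 and 2150 CPM in starved WT and 1476 and 1490 CPM in fed WT libraries. By library totals it was 3276 and 3294 CPM in starved KO-labelled, 1725 and 1733 CPM in fed KO-labelled, 1681 and 1699 CPM in starved WT and 1602 and 1621 CPM in fed WT libraries. Within each genotype starved libraries stood above fed libraries with both scalings, by far more in KO-labelled cells, while starved WT exceeded fed KO-labelled libraries by TMM only.

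Rpn1, the ribophorin I subunit, had 815 and 818 CPM in starved KO-labelled, 235 and 240 CPM in fed KO-labelled, 429 and 440 CPM in starved WT and 250.12 and 249.95 CPM in fed WT libraries. The order was starved KO-labelled, then starved WT, then fed cells. Rpn1 rose 3.44-fold in KO-labelled starvation (log2 1.78 ± 0.03 SE, adjusted p = 2.17e-22 by edgeR's quasi-likelihood test) and 1.74-fold in WT starvation (log2 0.80 ± 0.03 SE, adjusted p = 1.17e-16 by the same edgeR test). Rpn2, ribophorin II, whose promoter holds the element with a changed base shown above, rose by 1.02 ± 0.03 in KO-labelled and 0.50 ± 0.03 in WT cells, where library totals gave 0.05. Ddost, the subunit known as OST48, rose by 1.16 ± 0.03 in KO-labelled and 0.12 ± 0.03 in WT cells. The small WT value of Ddost was 0.22 without starved WT replicate 1 and -0.34 with library totals. Dad1, the smallest of the 6, rose by 0.18 ± 0.04 in KO-labelled cells, where library totals gave -0.07. In WT cells Dad1 had 0.04 ± 0.04, which did not pass, passed without starved WT replicate 2 (0.13) and was -0.42 with library totals.

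The catalytic subunits differed. Stt3a, the form that glycosylates chains as they pass the translocon, had 652 and 661 CPM in starved KO-labelled, 232 and 236 CPM in fed KO-labelled, 545 and 545 CPM in starved WT and 347 and 343 CPM in fed WT libraries. Stt3b, the form that also acts on sites skipped during translocation, had 226 and 215 CPM in starved KO-labelled, 185 and 181 CPM in fed KO-labelled, 235 and 242 CPM in starved WT and 156 and 170 CPM in fed WT libraries. Stt3a rose by 1.48 ± 0.03 in KO-labelled and 0.66 ± 0.03 in WT cells, and Stt3b rose by 0.27 ± 0.04 in KO-labelled cells, a call lost with library totals (0.01), and 0.55 ± 0.04 in WT cells. Their count ratio, Stt3a over Stt3b, was 2.89 and 3.07 in starved KO-labelled, 1.26 and 1.31 in fed KO-labelled, 2.32 and 2.25 in starved WT and 2.23 and 2.01 in fed WT libraries. Starved and fed KO-labelled libraries lay at the ends of this scale, and starved and fed WT libraries lay between them and close to each other.

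A list of other pathway genes held 6 further subunits of the complex, named after their values were seen, which can be set beside these catalytic forms. Ostc, a subunit of the complex with Stt3a, had 169 and 169 CPM in starved KO-labelled, 47.7 and 49.9 CPM in fed KO-labelled, 90.7 and 89.4 CPM in starved WT and 79.7 and 82.2 CPM in fed WT libraries. Its log2 fold change on starvation was 1.79 ± 0.04 in KO-labelled and 0.15 ± 0.04 in WT cells. The alternative oxidoreductase subunits of the complex with Stt3b had 0.96 ± 0.05 for Magt1 and 0.14 ± 0.04 for Tusc3 in KO-labelled cells, and -0.17 ± 0.05 for Magt1 and 0.57 ± 0.04 for Tusc3 in WT cells. The small subunits did not move together. Krtcap2 had 1.48 ± 0.04 in KO-labelled and 1.16 ± 0.04 in WT cells, and Ost4 had -0.28 ± 0.04 in KO-labelled and -1.08 ± 0.05 in WT cells. Tmem258 had 0.11 ± 0.06 in KO-labelled cells, which did not pass, and -0.38 ± 0.06 in WT cells.

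**Figure D3:**
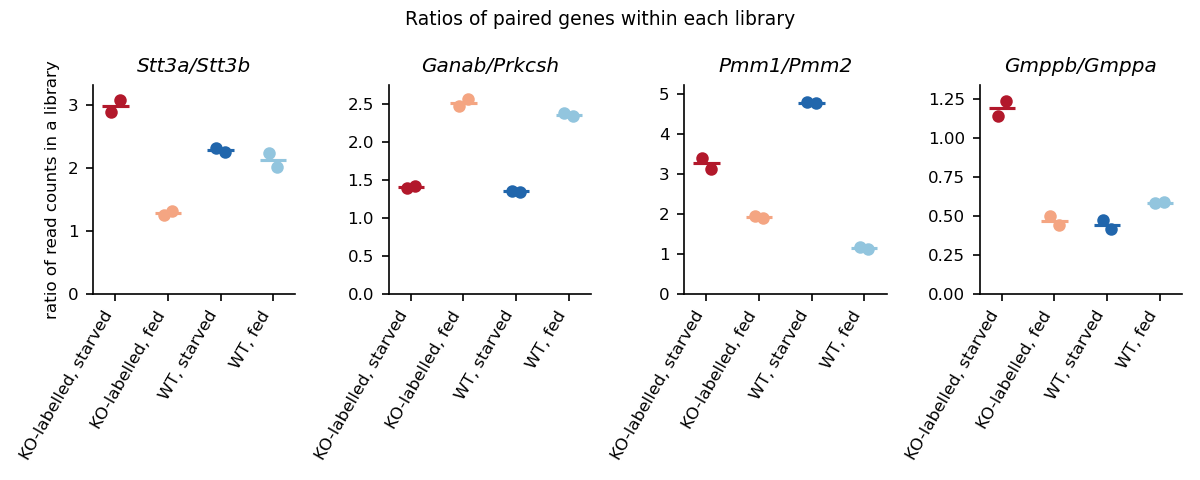
Ratio of read counts of gene pairs within each library (y axis from 0), for the 4 groups of 2 libraries, with a line at each group's mean. Stt3a over Stt3b ran from 1.26 to 3.07, with the extremes in fed and starved KO-labelled cells, Ganab over Prkcsh was lower in both starved groups, Pmm1 over Pmm2 was highest in starved WT cells, and Gmppb over Gmppa exceeded 1 in starved KO-labelled libraries.

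All 3 genes of glucose trimming and reglucosylation rose in KO-labelled starvation (median 0.48), and in WT starvation 2 rose and 1 fell (median 0.49). With library totals 2 rose and 1 fell in KO-labelled cells, and 1 rose and 1 fell in WT cells. Prkcsh, the beta subunit of glucosidase II that holds the enzyme in the ER, had 381 and 369 CPM in starved KO-labelled, 188 and 181 CPM in fed KO-labelled, 306 and 311 CPM in starved WT and 219 and 221 CPM in fed WT libraries. It was higher in starved cells of each genotype without overlap, by 1.03 ± 0.03 in KO-labelled and 0.49 ± 0.03 in WT cells, where library totals gave 0.03. Ganab, the catalytic alpha subunit, rose by 0.18 ± 0.03 in KO-labelled cells, where library totals gave -0.07, and fell by 0.32 ± 0.03 in WT cells. The count ratio of Ganab to Prkcsh was 1.39 and 1.42 in starved KO-labelled, 2.47 and 2.56 in fed KO-labelled, 1.36 and 1.33 in starved WT and 2.38 and 2.33 in fed WT libraries. It was lower in starved cells of both genotypes, and the genotypes lay closer to each other than fed and starved cells did.

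Uggt1, the sensor that puts a glucose back on misfolded glycoproteins, differed between genotypes more than between fed and starved cells. It had 455 and 480 CPM in starved KO-labelled, 333 and 339 CPM in fed KO-labelled, 157 and 174 CPM in starved WT and 96.0 and 97.9 CPM in fed WT libraries. Every KO-labelled library exceeded every WT library. Starvation raised it by 0.48 ± 0.04 in KO-labelled and 0.77 ± 0.04 in WT cells. Mogs, glucosidase I, is not among the 38 and was named after its values were seen. It had 64.6 and 62.3 CPM in starved KO-labelled, 49.96 and 47.12 CPM in fed KO-labelled, 21.9 and 21.1 CPM in starved WT and 49.49 and 50.01 CPM in fed WT libraries, with log2 fold changes on starvation of 0.39 ± 0.05 in KO-labelled and -1.21 ± 0.06 in WT cells.

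Of the 4 genes of mannose trimming and Golgi branching, 2 rose and 2 fell in KO-labelled starvation (median -0.09), and 0 rose and 3 fell in WT starvation (median -0.33). With library totals the counts were 1 and 2 in KO-labelled cells and 0 and 4 in WT cells. Mgat2, which starts the second branch of complex glycans, had 134 and 136 CPM in starved KO-labelled, 84.3 and 88.5 CPM in fed KO-labelled, 22.0 and 25.4 CPM in starved WT and 58.9 and 60.6 CPM in fed WT libraries. Starved KO-labelled libraries were highest and starved WT libraries lowest, with no overlap between any of the groups. Mgat2 rose by 0.64 ± 0.05 in KO-labelled cells and fell by 1.33 ± 0.06 in WT cells. Mgat1, which acts earlier in the Golgi, fell by 0.48 ± 0.04 in KO-labelled and 0.19 ± 0.04 in WT cells. In WT the fall of Mgat1 was 0.10 without starved WT replicate 1 and 0.12 without replicate 2.

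Man1a, a Golgi mannosidase whose mean per kb of transcript was the lowest of the 38 in every group, had 6.14 and 6.31 CPM in starved KO-labelled, 14.3 and 12.8 CPM in fed KO-labelled, 2.46 and 4.15 CPM in starved WT and 4.96 and 4.24 CPM in fed WT libraries. The starved WT libraries differed most from each other. Man1a fell by 1.13 ± 0.14 in KO-labelled and by 0.48 ± 0.19 in WT cells. The WT call was lost without starved WT replicate 1 (-0.08) or fed WT replicate 1 (-0.36), and the value was -0.83 without starved WT replicate 2. Man1b1, the ER mannosidase, rose by 0.29 ± 0.05 in KO-labelled cells, a call lost with library totals (0.04). In WT cells Man1b1 did not pass at 0.08 ± 0.05, passed without starved WT replicate 1 (0.21) and was -0.38 with library totals.

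Set side by side, the median starvation response was 1.09 for oligosaccharyltransferase, 0.84 for assembly, 0.48 for glucose trimming, 0.41 for donors and dolichol and -0.09 for mannose trimming and branching in KO-labelled cells. In WT cells the median was 0.53 for oligosaccharyltransferase, 0.29 for assembly, 0.49 for glucose trimming, -0.27 for donors and dolichol and -0.33 for mannose trimming and branching. Oligosaccharyltransferase had the highest median in each genotype and mannose trimming and branching the lowest. With library totals these ends were the same, at 0.84 and -0.35 in KO-labelled cells and at 0.07 and -0.79 in WT cells, while the donor and assembly medians of WT cells were -0.73 and -0.17. The role groups were not tested against each other, and groups of 3 to 14 genes give only a description.

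Few of the 38 genes differed strongly between fed KO-labelled and fed WT cells. In fed KO-labelled against fed WT cells 13 members were higher and 18 lower, where 74.4% of all genes were called, 34.5% higher and 39.8% lower, and the median was -0.07 against -0.06 over all genes. The members' calls were near this background. Of the 38, 2 were called and differed more than 2-fold, Uggt1 and Man1a, beside 3417 of the 14418 genes tested. Assembly genes were mostly lower, with 2 higher and 9 lower (median -0.39), and with library totals 2 higher and 8 lower. Donor genes were split 4 and 4, oligosaccharyltransferase genes 2 and 3 and glucose trimming genes 1 and 2, while all 4 genes of mannose trimming and branching were higher (median 0.56), also with library totals. With library totals 15 members were higher and 13 lower between fed genotypes, where 5811 of the 14418 genes tested were higher and 4737 lower. By role the counts with library totals were 6 and 2 for donors, 2 and 2 for oligosaccharyltransferase and 1 and 1 for glucose trimming.

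The largest differences between fed genotypes were in Uggt1, at 333 and 339 CPM in fed KO-labelled and 96.0 and 97.9 CPM in fed WT libraries, a 3.47-fold excess (log2 1.79 ± 0.04 SE). Man1a was 2.96-fold higher (log2 1.56 ± 0.15 SE), at 14.3 and 12.8 CPM in fed KO-labelled and 4.96 and 4.24 CPM in fed WT libraries. Alg14 was higher by 0.76 ± 0.10, at 28.8 and 29.0 CPM in fed KO-labelled and 16.6 and 17.4 CPM in fed WT libraries. In these 3 genes every fed KO-labelled library exceeded both fed WT libraries. The fed groups did not overlap in 36 of the 38 members, so this does not set the 3 genes apart. The share over all genes was not counted. Alg10b was lower by a log2 difference of -0.72 ± 0.04, with 70.2 and 71.2 CPM in fed KO-labelled and 117 and 116 CPM in fed WT libraries. Without starved WT replicate 1 or 2, which are not compared here, the values of all genes shifted by a median of 0.063 each time. Calls lost without these libraries came together with this shift, which was not separated from changes in single genes. Some calls of small differences changed when 1 library was left out. The calls of Alg6 (-0.39; -0.31 without fed KO-labelled replicate 2 and -0.32 without fed WT replicate 2) and Man1b1 (0.16; 0.09 without fed KO-labelled replicate 2) were lost in this way. The call of Dpm2 (-0.16) was lost without any of the fed libraries or either starved WT library, with -0.10 as the value nearest 0. Pmm2 (-0.15) was lost without fed KO-labelled replicate 1, fed WT replicate 2 or either starved WT library, with -0.09 nearest 0. Rpn1 (-0.08) was lost without fed KO-labelled replicate 1, either fed WT library or either starved WT library, with -0.01 nearest 0, and had 0.04 with library totals. Stt3b was at 0.17 and at 0.10 without fed WT replicate 1, and Ganab was at -0.16 and at -0.10 without either starved WT library. Ddost, which did not pass at -0.07, passed without fed KO-labelled replicate 1 (-0.10).

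Between starved genotypes the members lay mostly higher in KO-labelled cells. In starved KO-labelled against starved WT cells 28 were higher and 7 lower, where 79.6% of all genes were called, 41.9% higher and 37.7% lower, and the median was 0.58 against 0.07 over all genes. With library totals 31 were higher and 3 lower, where 7817 of the 14418 genes tested were higher and 3778 lower. The higher and lower counts were 10 and 4 for donors, 7 and 1 for assembly, 4 and 2 for oligosaccharyltransferase, 3 and 0 for glucose trimming and 4 and 0 for mannose trimming and branching. With library totals they were 10 and 2 for donors, 9 and 1 for assembly and 5 and 0 for oligosaccharyltransferase, and did not change for the other roles. In 9 of the 38 a called difference exceeded 2-fold, each time higher in KO-labelled cells. Among the 14418 genes tested a called difference exceeded 2-fold in 4945, of which 3145 were higher and 1800 lower. In either direction together, large differences were thus not more frequent among the members. The share that was higher by more than 2-fold was similar among members and all genes.

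Gmppb differed most between starved cells, at 67.6 and 67.8 CPM in starved KO-labelled and 10.3 and 9.90 CPM in starved WT libraries, 6.68-fold (log2 2.74 ± 0.07 SE). Mgat2 was 5.68-fold higher (log2 2.51 ± 0.06 SE), at 134 and 136 CPM in starved KO-labelled and 22.0 and 25.4 CPM in starved WT libraries. Dolk followed at 4.11-fold (log2 2.04 ± 0.10 SE) and Uggt1 at 2.83-fold (log2 1.499 ± 0.04 SE). Of these 4, Uggt1 was also more than 2-fold higher in fed KO-labelled cells, while Gmppb had a fed difference of 0.08 ± 0.07 that did not pass. The 7 lower members were Dpm3, Mpi, Pmm1, Pmm2, Alg10b, Dad1 and Stt3b. Pmm1 was lowest of them at -0.83 ± 0.04, and with library totals Pmm2 (0.04), Dad1 (0.01) and Stt3b (0.20) had the opposite sign. The Stt3b call (-0.11) was lost without starved KO-labelled replicate 2 (-0.08) and was -0.20 without starved WT replicate 1. Dpm1 was at 0.38 and at 0.22 without starved WT replicate 2, and Man1a at 0.91 and at 0.52 without starved WT replicate 1. Alg14, which did not pass at -0.14, passed without starved WT replicate 2 (-0.43).

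The difference between the starvation responses, KO-labelled minus WT, was tested as an interaction term. It was higher in 29 members and lower in 7, where 64.5% of all genes were called, 34.1% higher and 30.4% lower, with a median of 0.59 against 0.10 over all genes. With library totals 29 were higher and 3 lower, where 6306 of the 14418 genes tested were higher and 3099 lower. By role the higher and lower counts were 10 and 2 for donors, 10 and 1 for assembly, 5 and 1 for oligosaccharyltransferase, 2 and 1 for glucose trimming and 2 and 2 for mannose trimming and branching. With library totals they were 5 and 0 for oligosaccharyltransferase, 2 and 0 for glucose trimming and 2 and 0 for mannose trimming and branching, and did not change for donors and assembly. Regardless of calls, the response was above that of WT in 30 of the 38, or 78.9%, against 54.4% of all genes tested.

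Gmppb had the largest difference of responses among the 38 at 2.66 ± 0.10 on the log2 scale (adjusted p = 5.66e-15 by edgeR's quasi-likelihood test). Mgat2 followed at 1.97 ± 0.07, Alg6 at 1.70 ± 0.19 and Dolk at 1.69 ± 0.13. Gmppb, Mgat2 and Dolk rose in KO-labelled and fell in WT cells, whereas Alg6 fell in both and fell less in KO-labelled cells. Pmm1 had the lowest value at -1.43 ± 0.06, followed by Alg14 at -0.90 ± 0.16 and Mpi at -0.82 ± 0.09. Within oligosaccharyltransferase the value ran from 1.04 ± 0.04 for Ddost to -0.28 ± 0.06 for Stt3b, and in glucose trimming from 0.54 ± 0.04 for Prkcsh to -0.29 ± 0.06 for Uggt1. The negative values of Stt3b (-0.08), Uggt1 (-0.09), Man1a (-0.45) and Mgat1 (-0.09) did not pass with library totals.

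Without starved WT replicate 1 or 2 the values of all genes shifted in this difference, by a median of -0.127 and -0.125. This common shift was not separated from changes in single genes. Some calls of the difference changed when 1 library was left out. They were lost for Alg1 (0.29; 0.15 without starved WT replicate 1 and 0.17 without replicate 2), Alg10b (0.20; 0.04 and 0.11 without the same libraries), Alg9 (0.39; 0.21 without starved WT replicate 1) and Dpm1 (0.46; 0.23 without starved WT replicate 2). The same held for Man1b1 (0.22; 0.03 without starved WT replicate 1 and 0.15 without fed KO-labelled replicate 1) and Man1a (-0.65; -0.35 without starved WT replicate 2, -0.56 without fed KO-labelled replicate 1 and -0.54 without fed WT replicate 2). Dad1 (0.14) was lost without starved KO-labelled replicate 2 (0.12), fed KO-labelled replicate 1 (0.12), fed WT replicate 2 (0.14) and either starved WT library (0.03 and -0.0014). Without starved WT replicate 1 the value of Alg8 was 0.27 against 0.47, that of Stt3b -0.43 against -0.28, that of Uggt1 -0.50 against -0.29 and that of Man1a -1.10 against -0.65. Pmm2, which did not pass at -0.13, passed without starved WT replicate 1 (-0.25) or 2 (-0.26).

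**Figure D4:**
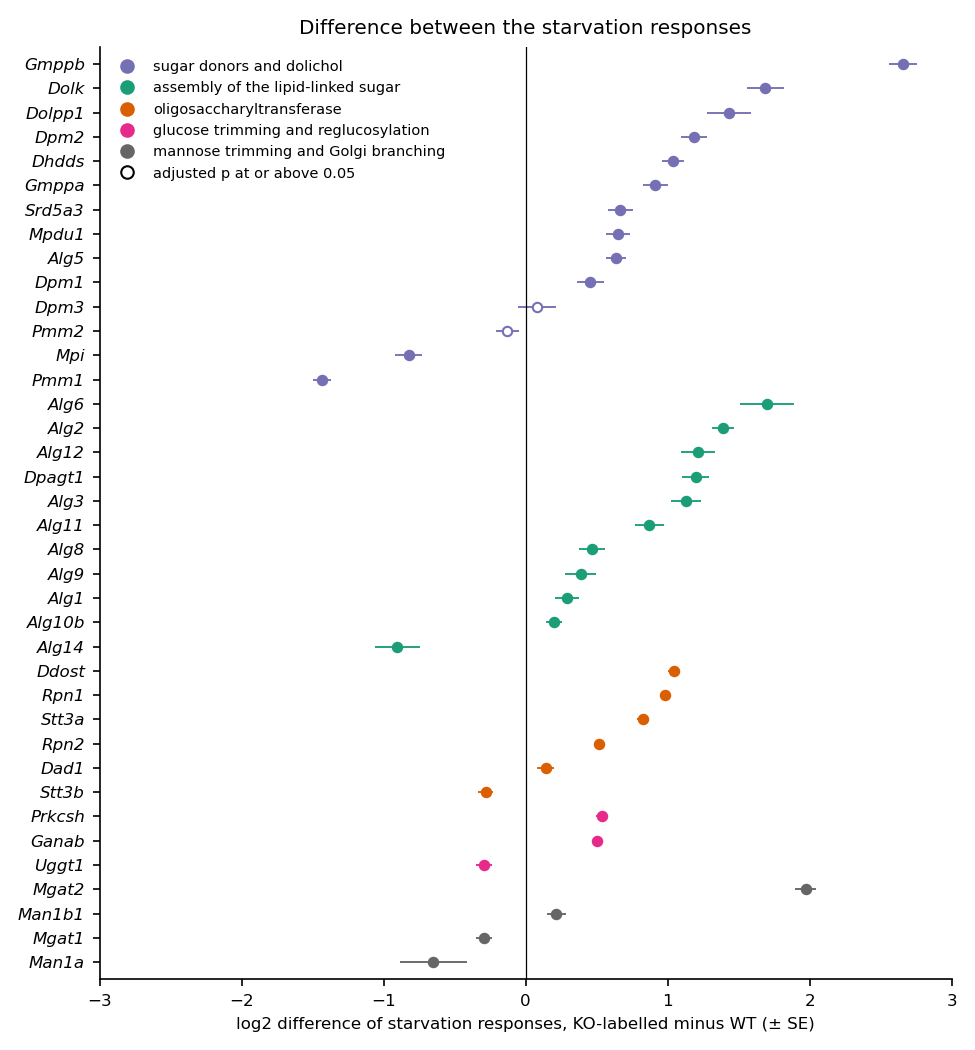
Difference of the starvation responses (log2, KO-labelled minus WT, bars ± SE) for each of the 38 genes by role, with open points where the adjusted p was at or above 0.05. Gmppb at 2.66 and Pmm1 at -1.43 mark the ends, and the open points are Dpm3 and Pmm2.

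A list of 49 other genes of N-glycosylation, the calnexin cycle, glycoprotein degradation and nucleotide sugars was examined beside the 38, and 45 of them were tested. Of these, 29 (64.4%) rose and 11 (24.4%) fell in KO-labelled starvation, where 39.4% of all genes were higher and 40.3% lower. In WT starvation 20 (44.4%) rose and 18 (40%) fell, where 36.7% of all genes were higher and 44.8% lower. With library totals 22 rose and 16 fell in KO-labelled starvation and 11 rose and 28 fell in WT starvation. Sel1l, the adaptor of the ER degradation ligase Hrd1, rose most in KO-labelled cells, 7.38-fold (log2 2.88 ± 0.03 SE), and 3.96-fold in WT cells (log2 1.98 ± 0.03 SE). Calr rose by 2.24 ± 0.02 in KO-labelled and 1.87 ± 0.02 in WT cells, and Edem1, a lectin of glycoprotein degradation, by 1.88 ± 0.03 in KO-labelled and 1.41 ± 0.03 in WT cells. The largest falls in WT cells were in Golgi enzymes, Mgat3 at -2.16 ± 0.16 and Man2a1 at -1.93 ± 0.03. Both fell in KO-labelled cells too, Mgat3 at -1.74 ± 0.27, from at most 3.02 CPM in fed libraries, and Man2a1 at -1.53 ± 0.04. Between starved genotypes 28 of the 45 (62.2%) were higher and 13 (28.9%) lower in KO-labelled cells, where 41.9% of all genes were higher and 37.7% lower. Between fed genotypes 16 (35.6%) were higher and 23 (51.1%) lower, where 34.5% of all genes were higher and 39.8% lower. The difference of responses was higher in 28 (62.2%) and lower in 8 (17.8%), where 34.1% of all genes were higher and 30.4% lower. With library totals the higher and lower counts were 33 and 9 between starved genotypes and 18 and 20 between fed genotypes. In the difference of responses they were 31 and 4. The counts of all genes tested with library totals are given above for each comparison.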

How the data were processed

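Total RNA of 8 mouse embryonic fibroblast libraries was sequenced. The deposited table gives raw counts as whole numbers, 1 row for each RefSeq transcript, with 31055 rows for 23366 symbols. TopHat2 2.0.9, bedtools and build mm9 are named, without roles, per the submitters' processing notes. Strandedness and the treatment of multiply mapped reads were not given in the sources used here. Another 4 columns of sample values fitted no label and were left out. Of the symbols, 4447 had more than 1 row, 5 of them members.

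Groups came from the sample titles. The test was that of edgeR 4.0.16 under R 4.3.3 (TMM, filterByExpr, 1 coefficient per group over all 8 libraries with 4 residual degrees of freedom, quasi-likelihood F test, Benjamini-Hochberg over 14418 genes, threshold 0.05) in 5 comparisons, after a test on simulated counts. Each SE is the size of the log2 fold change divided by the root of F. CPM use TMM-adjusted totals. TMM factors were lower in starved WT libraries than in the others, so library totals are given as an alternative. Other alternatives were DESeq2 1.42.0 as a test and for size factors, other filters, summed isoform rows, only the libraries compared, each library left out, and the replicate number as a block.

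Library values are printed for the 2 called members of each role with the largest changes in each starvation comparison, for the 4 largest in the genotype comparisons, and for genes beside them. Members and lists were chosen with earlier results of these data known. Sequences, lengths and overlaps came from RefSeq and an annotation on GRCm38, another build than mm9, matched by symbol or accession.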

Additional observations from a re-analysis of the deposited data

Results flagged for a closer look

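The test of the difference itself singled out 36 of the 38 genes, whose starvation response differed between KO-labelled and WT cells by edgeR's interaction term. Values are log2 differences, KO-labelled minus WT, and 64.5% of all genes tested passed the same test. Among donor and dolichol genes the difference was 2.66 for Gmppb, 1.69 for Dolk, 1.43 for Dolpp1, 1.19 for Dpm2, 1.04 for Dhdds, 0.91 for Gmppa, 0.67 for Srd5a3, 0.65 for Mpdu1, 0.64 for Alg5, 0.46 for Dpm1, -0.82 for Mpi and -1.43 for Pmm1. Assembly genes ran from 1.70 for Alg6 through 1.39 for Alg2, 1.21 for Alg12, 1.20 for Dpagt1, 1.13 for Alg3, 0.87 for Alg11, 0.47 for Alg8, 0.39 for Alg9, 0.29 for Alg1 and 0.20 for Alg10b to -0.90 for Alg14. The oligosaccharyltransferase values were 1.04 for Ddost, 0.98 for Rpn1, 0.83 for Stt3a, 0.52 for Rpn2, 0.14 for Dad1 and -0.28 for Stt3b. Glucose trimming had 0.54 for Prkcsh, 0.50 for Ganab and -0.29 for Uggt1. Mannose trimming and branching had 1.97 for Mgat2, 0.22 for Man1b1, -0.29 for Mgat1 and -0.65 for Man1a. Genotype, sex of the embryos and culture cannot be told apart in these differences, and with 2 libraries a group no library was examined as an outlier.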

How the results depend on the processing

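Over the 5 comparisons of the 38 genes, the DESeq2 test kept direction and call in 177 values, lost 10 calls and added 3, and DESeq2 size factors kept 178, lost 7 and added 5. No filter on low counts kept 188 and lost 2, a filter at 5 CPM in 2 libraries kept 184, lost 5 and added 1, and summed isoform rows kept 189 and added 1. Fits of only the libraries compared, which do not apply to the interaction, kept 143, lost 5 and added 4. Library totals kept 150, lost 19, added 4 and reversed 17. With them 6 members rose in WT starvation (17 with TMM), 3 were lower in starved KO-labelled against starved WT cells (7 with TMM), and 3 were lower in the difference of responses (7 with TMM). In WT starvation library totals gave -0.14 for Dpm1, -0.0024 for Mpi, -0.33 for Mpdu1, -0.17 for Alg2, -0.31 for Alg11, -0.0604 for Alg12, -0.0630 for Alg10b, -0.34 for Ddost, -0.42 for Dad1 and -0.38 for Man1b1. In KO-labelled starvation they gave -0.0745 for Dad1 and -0.0727 for Ganab, and in fed KO-labelled against WT cells 0.0404 for Rpn1. In starved KO-labelled against WT cells they gave 0.0397 for Pmm2, 0.25 for Alg9, 0.0111 for Dad1 and 0.20 for Stt3b. The share of all genes' calls that were higher was 28.2% in WT starvation (45% with TMM), 37% in KO-labelled starvation (49.4%), 67.4% between starved genotypes (52.6%) and 67% in the difference of responses (52.9%). Which scaling is closer to RNA per cell was not tested. The TMM scale itself moved when a starved WT library was left out. Without starved WT replicate 1 or 2, all genes shifted by a median of 0.073 and 0.072 in WT starvation. Between starved genotypes the shifts were -0.064 and -0.062. Leaving out a library kept 1468 values, lost 40 calls, added 11 and reversed 1, Dad1 in the difference of responses without starved WT replicate 2 (-0.0014, with up to 0.17 without another library).

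Libraries that share a replicate number did not deviate together (correlations of -0.0189 to 0.0141), so the number was not taken as a pairing. With the replicate number as a block, 28 members rose and 9 fell in KO-labelled starvation, 17 rose and 16 fell in WT starvation, 28 were higher and 7 lower between starved genotypes, 13 higher and 18 lower between fed genotypes, and 29 higher and 7 lower in the difference of responses, and none of the 190 calls changed. Man1a, Alg6 and Dolpp1 lay below 5 CPM in starved WT cells and had the largest SEs of the 38 in WT starvation. Whether depth set these SEs was not tested.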
